A study of Mus musculus with 36 samples.

Results

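The comparison described here adds MMSET to plasma cells that already carry Ikk2ca. The MMSET-Ikk2ca genotype was set against the Ikk2ca(M) genotype, with 6 and 4 RNA-seq libraries, which make 10 of the 36 libraries of the series. The libraries were chosen by their genotype labels alone, and all 15416 genes that passed the filter on low counts were compared. MMSET is another name for NSD2, a histone methyltransferase that places the H3K36 dimethyl mark. Its human gene is switched on by the t(4;14) translocation found in some plasma cell cancers (multiple myeloma). IKK2 (gene Ikbkb) is the kinase that releases canonical NF-kB dimers from their inhibitors, and Ikk2ca names a constitutively active form of it. Plasma cells are the antibody-secreting end stage of B cells, which normally silence much of the B cell program while they build a large secretory apparatus.

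MMSET-Ikk2ca mice carried both alleles, and Ikk2ca(M) mice carried Ikk2ca without MMSET. Where a result turns on Ikk2ca, the MMSET group (MMSET without Ikk2ca, 4 libraries) was set against Control(M) (neither allele, 4 libraries), and the Ccnd1-Ikk2ca group (cyclin D1 added to Ikk2ca, 6 libraries) against Ikk2ca(D) (4 libraries) of the other cohort. All were C57/BL6 mice, and each library came from 2000 reporter-positive plasma cells, sorted from bone marrow as CD138+ and TACI+. The age of the mice, the Cre driver and whether each library is a separate mouse are not given in the sources used here, so p-values measure the spread between libraries, which may in part be technical. In bulk libraries of sorted cells, fewer cells of a type and less RNA per cell cannot be told apart.

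Estimated read counts summed to genes came to 57123027 to 66347674 reads per MMSET-Ikk2ca library and 63152526 to 78735713 reads per Ikk2ca(M) library. Outside the immunoglobulin genes, 21767923 to 34936022 reads were left in MMSET-Ikk2ca and 20715606 to 26253955 in Ikk2ca(M). At least 10 reads were counted for 12657 to 14045 genes per MMSET-Ikk2ca library and 12964 to 13665 genes per Ikk2ca(M) library. Levels are given as CPM (read counts scaled to a common library size), which do not correct for gene length, so they are compared between libraries and not between genes. Within a group the log2 levels of pairs of libraries correlated at Pearson's r of 0.841 to 0.894 in MMSET-Ikk2ca and 0.853 to 0.880 in Ikk2ca(M). The genes of the sorting markers were detected in both groups. Sdc1, which encodes CD138, averaged 380 ± 68.0 CPM in MMSET-Ikk2ca and 419 ± 57.7 CPM in Ikk2ca(M) (SD, n = 6 and 4). Tnfrsf13b, which encodes TACI, averaged 190 ± 28.5 CPM in MMSET-Ikk2ca and 230 ± 29.3 CPM in Ikk2ca(M). The summed level of 10 plasma cell markers, these 2 included, was 4799 to 6850 CPM (median 5930) in MMSET-Ikk2ca against 7162 to 17085 CPM (median 11884) in Ikk2ca(M), without overlap, and 8 of the 10 had a negative fold change, 2 of them called. Most of that sum came from Jchain and Xbp1, neither of them called, and their levels are given below. The summed level of 16 neutrophil markers was 1.71 to 19.1 CPM (median 4.63) in MMSET-Ikk2ca against 6.96 to 497 CPM (median 94.4) in Ikk2ca(M). Of these markers, Ctsg was at 0 in all 6 MMSET-Ikk2ca libraries, and Prtn3 was at 0 in every library of both groups.

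The targeted genes followed the labels. Nsd2 (chr5:33820725-33897975, GRCm38) stood at 211, 311, 617, 472, 178 and 288 CPM in the 6 MMSET-Ikk2ca libraries, against 3.54, 2.14, 5.31 and 5.95 CPM in the 4 Ikk2ca(M) libraries. Every MMSET-Ikk2ca library was far above every Ikk2ca(M) library. The log2 fold change was 6.35 ± 0.48 (SE), with an adjusted p of 1.94e-06 in edgeR's quasi-likelihood test with Benjamini-Hochberg adjustment over all genes. Without Ikk2ca, MMSET libraries averaged 640 ± 194 CPM of Nsd2 and Control(M) libraries 3.41 ± 1.23 CPM. Reads of an introduced copy and of the resident gene cannot be told apart in these counts. Ikbkb averaged 55.2 ± 6.64 CPM in MMSET-Ikk2ca and 57.7 ± 10.2 CPM in Ikk2ca(M), with a log2 fold change of -0.06 ± 0.23 and an adjusted p of 0.977. Ccnd1, the cyclin tested in the other cohort, was at 0.262 CPM in MMSET-Ikk2ca and 0.188 CPM in Ikk2ca(M).

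Most of the added Nsd2 reads were assigned to a single transcript. Nsd2-201, a protein-coding transcript of 4633 bases, took 77.4 ± 2.35% of the Nsd2 reads in MMSET-Ikk2ca, and each of the 6 libraries lay between 73.7% and 80.4%. In MMSET libraries the share averaged 78.4%. In Ikk2ca(M) libraries, with few Nsd2 reads to assign, it was 17.2 ± 34.4%. By TPM, which divides reads by transcript length, Nsd2-201 made up 43.4% of Nsd2 in MMSET-Ikk2ca.

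Adding MMSET to Ikk2ca changed 148 of 15416 genes at an adjusted p under 0.05, or 0.96% of those tested. Of these, 66 were higher in MMSET-Ikk2ca (0.428%) and 82 were lower (0.532%), and 1934 genes had an unadjusted p under 0.05. The change was at least 2-fold in 57 of the 66 and in 66 of the 82. The groups did not overlap for 61 of the higher genes and 68 of the lower genes, whereas over all tested genes 2.32% lay wholly above and 2.21% wholly below. Many were genes near silence in a single group: 25 of the higher genes averaged under 1 CPM in Ikk2ca(M), and 37 of the lower genes averaged under 1 CPM in MMSET-Ikk2ca. Xist, an RNA of the inactive X chromosome in females, was above 10 CPM in 3 of 6 MMSET-Ikk2ca libraries (replicates 4, 5 and 6) and 4 of 4 Ikk2ca(M) libraries. With that split as a covariate, 72 genes were called, 36 in each direction. A fit of these 2 groups alone called 170 genes, 108 higher and 62 lower, of which 99 were among the 148.

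**Figure D1:**
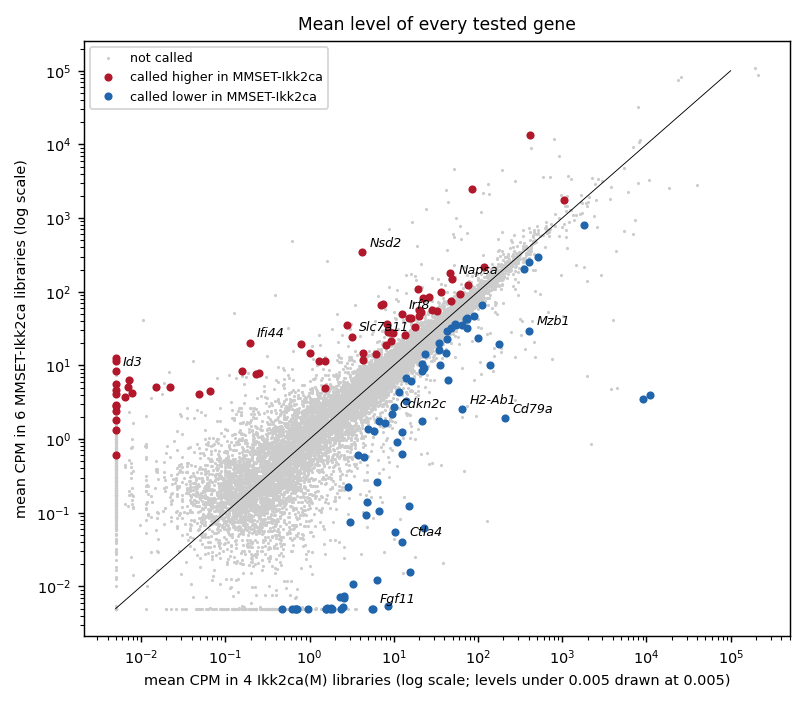
Mean level of every tested gene in the 6 MMSET-Ikk2ca libraries (vertical axis) against the 4 Ikk2ca(M) libraries (horizontal axis), in CPM on log axes, with the 66 genes called higher and the 82 called lower in colour. Nsd2 stands far above the diagonal at 346 CPM in MMSET-Ikk2ca against 4.23 CPM in Ikk2ca(M), and Cd79a far below it at 1.90 CPM in MMSET-Ikk2ca against 210 CPM in Ikk2ca(M).

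Among the strongest rises were genes that Ikk2ca(M) plasma cells hardly transcribed. Id3 encodes an inhibitor of E-protein transcription factors. It had 2.32, 2.55, 1.47, 9.03, 30.7 and 4.33 CPM in MMSET-Ikk2ca, and no read in any Ikk2ca(M) library (adjusted p = 0.0160, edgeR). Against a floor of 3 reads over the 4 Ikk2ca(M) libraries it was at least 9.56 log2 units higher, and at least 8.47 without MMSET-Ikk2ca replicate 5. Sfrp1, a secreted antagonist of Wnt ligands, had 15.8, 14.7, 13.5, 9.57, 9.88 and 4.48 CPM in MMSET-Ikk2ca and a single read over all Ikk2ca(M) libraries (adjusted p = 1.31e-05, edgeR). Sfrp1 was also called in MMSET against Control(M), at 4.96 CPM in MMSET and 0.0122 CPM in Control(M). Peg3, a paternally expressed imprinted gene, ranged from 3.91 to 23.4 CPM in MMSET-Ikk2ca against a single read in Ikk2ca(M) (adjusted p = 0.00186, edgeR).

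Several others shared that pattern of clear detection in all 6 MMSET-Ikk2ca libraries and near absence in Ikk2ca(M). Epha7, an ephrin receptor, ranged from 1.09 to 14.9 CPM in MMSET-Ikk2ca against a single read in Ikk2ca(M). Sh3bp4, an endocytic adaptor, ranged from 2.39 to 12.9 CPM and Fyb2 from 1.39 to 9.57 CPM in MMSET-Ikk2ca, each against 2 reads in Ikk2ca(M). The adjusted p was 0.000605 for Epha7, 0.000543 for Sh3bp4 and 0.00202 for Fyb2 in edgeR. Epha7 and Sh3bp4 were called in MMSET against Control(M) as well, while Fyb2 was at 0 CPM in MMSET and 0.00416 CPM in Control(M). Sgce, imprinted like Peg3, was higher by 8.24 ± 1.52 log2 units (adjusted p = 0.0141), and Rbms3, an RNA-binding protein, by 7.75 ± 1.59 (adjusted p = 0.0194). Xlr3b, an X-linked gene, was higher by 5.72 ± 1.19 (adjusted p = 0.0228), and Sntg2, a syntrophin, by 5.03 ± 1.04 (adjusted p = 0.0217).

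The B cell list held some of the steepest falls, although most of its members did not pass the test. Of 32 tested members 6 fell and 2 rose, 21 had a negative and 11 a positive fold change, and the list median was -0.49 log2 units against 0.02 over all genes. The same list had a median of -1.01 in MMSET against Control(M) and of -1.51 in Ccnd1-Ikk2ca against Ikk2ca(D). The summed level of 12 mature B cell markers was 165 to 236 CPM (median 211) in MMSET-Ikk2ca against 153 to 215 CPM (median 177) in Ikk2ca(M), with 6 of 11 tested negative and 5 positive. Cd79a encodes the signalling chain Ig-alpha of the B cell receptor. It had 1.14, 0.382, 1.85, 1.99, 4.66 and 1.40 CPM in MMSET-Ikk2ca against 248, 134, 177 and 279 CPM in Ikk2ca(M). All 6 MMSET-Ikk2ca libraries were far below the lowest Ikk2ca(M) library. The log2 fold change was -6.78 ± 0.69 (adjusted p = 0.000160, edgeR). Blk, a B cell tyrosine kinase, was detected only in MMSET-Ikk2ca replicate 1 of its group, at 0.0644 CPM, against 1.303 to 6.38 CPM in Ikk2ca(M) (-8.15 ± 1.33, adjusted p = 0.00449).

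Transcription factors of the B lineage did not move one way. Ebf1, a factor that specifies B cells, had 2 reads over all MMSET-Ikk2ca libraries against 3.30, 0.939, 0.0797 and 2.09 CPM in Ikk2ca(M) (adjusted p = 0.00449). Ets1, which restrains plasma cell formation, averaged 1.79 CPM in MMSET-Ikk2ca and 6.71 CPM in Ikk2ca(M), and fell by 1.91 ± 0.37 log2 units with overlapping groups (adjusted p = 0.0139). Irf8 went the other way. It had 57.5, 69.9, 44.5, 33.0, 41.1 and 51.0 CPM in MMSET-Ikk2ca against 16.03, 10.9, 11.0 and 11.6 CPM in Ikk2ca(M), a log2 fold change of 1.998 ± 0.41 with no overlap (adjusted p = 0.0225). Ms4a1, which encodes CD20, did not pass the test at 39.2 CPM in MMSET-Ikk2ca and 51.9 CPM in Ikk2ca(M).

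MHC class II genes encode the molecules that present antigen to helper T cells. Of 11 tested genes 2 fell, 8 had a negative and 3 a positive fold change, and the median was -1.79. H2-Ab1 had 1.72, 6.37, 1.01, 0.165, 3.33 and 2.76 CPM in MMSET-Ikk2ca against 66.0, 43.4, 58.4 and 90.8 CPM in Ikk2ca(M). Its log2 fold change was -4.66 ± 0.88 (adjusted p = 0.0194). H2-Eb2 did not exceed 0.165 CPM in MMSET-Ikk2ca and had 11.6, 5.05, 12.03 and 12.6 CPM in Ikk2ca(M) (-7.55 ± 0.77, adjusted p = 3.63e-05). In MMSET against Control(M), where no gene of this class was called, 1 of the 11 genes had a positive fold change and the median was -2.12.

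**Figure D2:**
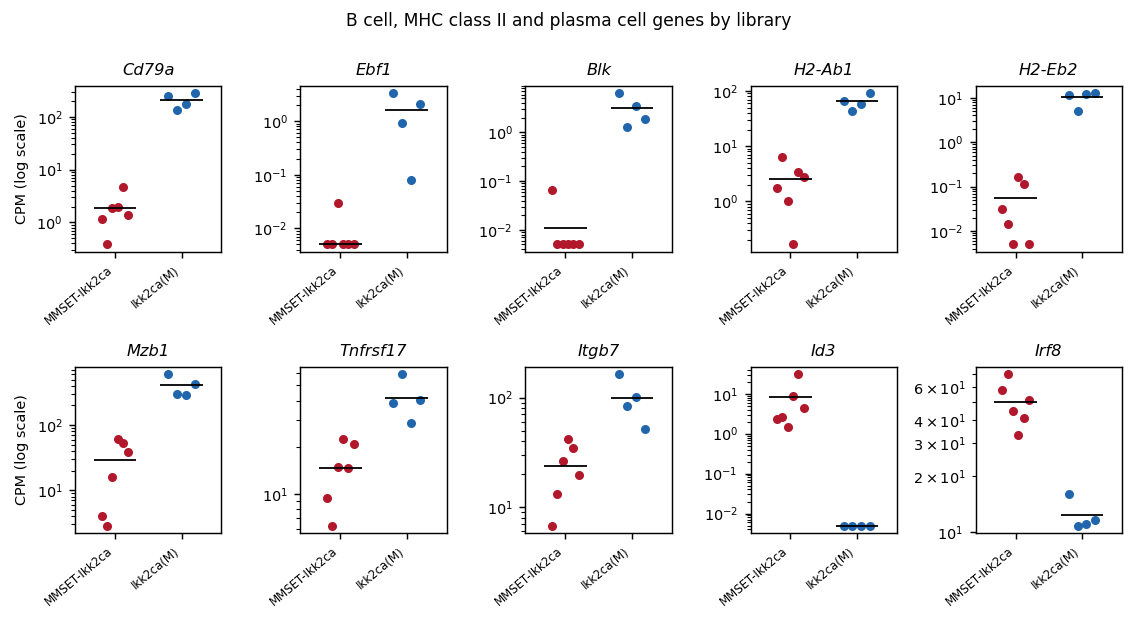
Level of 10 B cell, plasma cell and MHC class II genes in MMSET-Ikk2ca (left) and Ikk2ca(M) (right), as CPM on log axes, 1 panel a gene, with each point a library, lines at the group mean and levels near 0 drawn at the lower edge. For Cd79a the 6 MMSET-Ikk2ca libraries sit between 0.382 and 4.66 CPM, all below the Ikk2ca(M) libraries at 134 to 279 CPM, and Irf8 shows the opposite order.

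Genes of the plasma cell program fell in part. Of 31 tested members 3 fell and none rose (median -0.27). Mzb1, a chaperone of antibody assembly in the endoplasmic reticulum, had 4.08, 2.87, 15.8, 61.3, 53.9 and 38.5 CPM in MMSET-Ikk2ca against 601, 299.9, 286 and 434 CPM in Ikk2ca(M). Its log2 fold change was -3.78 ± 0.69 (adjusted p = 0.0152). Replicates 1, 2 and 3 of MMSET-Ikk2ca, in which Xist was not above 10 CPM, were the lowest. Itgb7, the beta 7 integrin used in homing, had 6.80 to 42.1 CPM in MMSET-Ikk2ca against 51.4 to 163 CPM in Ikk2ca(M) (-2.07 ± 0.41, adjusted p = 0.0208). Tnfrsf17, which encodes the survival receptor BCMA, had 9.42, 6.28, 14.8, 22.6, 14.6 and 21.1 CPM in MMSET-Ikk2ca against 38.8, 58.9, 28.6 and 40.5 CPM in Ikk2ca(M) (-1.49 ± 0.35, adjusted p = 0.0448). The BCMA call is close to the threshold and was lost in 10 of the 18 fits that leave out 1 library, 3 of them for an Ikk2ca(M) library, 4 for an MMSET-Ikk2ca library and 3 for a Control(M) library. The regulators Prdm1 (55.1 CPM in MMSET-Ikk2ca and 62.5 CPM in Ikk2ca(M)), Irf4 (145 CPM in MMSET-Ikk2ca and 110 CPM in Ikk2ca(M)) and Xbp1 (1732 CPM in MMSET-Ikk2ca and 2529 CPM in Ikk2ca(M)) did not pass the test. Jchain, the joining chain of IgM and IgA, averaged 3002 ± 1260 CPM in MMSET-Ikk2ca and 7972 ± 4087 CPM in Ikk2ca(M) (adjusted p = 0.180).

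Adhesion, homing and interaction molecules included further large falls. Of 36 tested adhesion and migration genes, 3 fell and 1 rose. Anxa2, a membrane-binding annexin, had a single read in MMSET-Ikk2ca and 7.50, 3.03, 1.07 and 10.8 CPM in Ikk2ca(M) (adjusted p = 0.000963). Pecam1, the adhesion molecule CD31, rose in all 6 MMSET-Ikk2ca libraries to 27.2 to 83.9 CPM, against 14.1 to 16.1 CPM in Ikk2ca(M) (1.53 ± 0.31, adjusted p = 0.0170). Of 24 checkpoint and interaction genes 2 fell. Ctla4, an inhibitory receptor, had at most 0.129 CPM in MMSET-Ikk2ca against 37.8, 3.47, 7.98 and 1.55 CPM in Ikk2ca(M) (-8.27 ± 1.82, adjusted p = 0.0436). Btla had 2 reads in MMSET-Ikk2ca and 30.3, 2.45, 0 and 1.06 CPM in Ikk2ca(M), so the groups overlapped (adjusted p = 0.0322). The summed level of 13 T cell markers was 2.14 to 7.07 CPM in MMSET-Ikk2ca against 4.66 to 17.8 CPM in Ikk2ca(M). That of 10 NK and cytotoxic cell markers was 1.80 to 14.9 CPM in MMSET-Ikk2ca against 8.68 to 78.7 CPM in Ikk2ca(M). None of these markers was called, and 12 of 13 tested T cell and 4 of 6 tested NK markers had a negative fold change. The part of these cells in the falls of Ctla4 and Btla was not tested.

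Nrp2, a semaphorin receptor, was at most 0.345 CPM in MMSET-Ikk2ca against 23.5, 9.08, 14.8 and 12.5 CPM in Ikk2ca(M) (-6.85 ± 0.88, adjusted p = 0.000464). Fgf11, an intracellular member of the FGF family, had a single read in MMSET-Ikk2ca and 3.83, 5.02, 8.05 and 5.68 CPM in Ikk2ca(M) (adjusted p = 4.04e-05). For both, every MMSET-Ikk2ca library was below every Ikk2ca(M) library. Myo1e, a class I myosin, fell by 5.86 ± 1.23 log2 units (adjusted p = 0.0297). Chil3, a chitinase-like protein known from myeloid cells, was uneven, with at most 0.0644 CPM in MMSET-Ikk2ca and 0.185, 2.88, 6.55 and 52.4 CPM in Ikk2ca(M) (-9.95 ± 1.78, adjusted p = 0.0144). Of the 14 tested neutrophil markers none was called, and all 14 had a negative fold change, with a median of -4.14. S100a8, for example, ranged from 0.284 to 4.70 CPM in MMSET-Ikk2ca against 2.95 to 183 CPM in Ikk2ca(M). The part of these cells in the fall of Chil3 and Anxa2 was not tested. Cxcr3 and Dusp2 were called at very low levels. Cxcr3, a chemokine receptor, had a single read in MMSET-Ikk2ca (adjusted p = 0.0423). Dusp2, a phosphatase of MAP kinases, had none in MMSET-Ikk2ca against 2.44, 0.258, 0.0159 and 0.0783 CPM in Ikk2ca(M), at least 6.69 log2 units lower (adjusted p = 0.0372). That bound rests on Ikk2ca(M) replicate 1, without which Dusp2 is at least 4.12 log2 units lower.

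Genes induced by interferon leaned higher, and 5 of them passed the test. Of 35 tested members of the interferon-stimulated list, 5 rose and none fell, 34 had a positive fold change, 17 had an unadjusted p under 0.05, and the median was 1.18 log2 units. Ifi44 led them, with 22.1, 26.7, 33.2, 15.4, 11.9 and 13.1 CPM in MMSET-Ikk2ca and 0, 0.743, 0.0159 and 0.0261 CPM in Ikk2ca(M), a log2 fold change of 6.69 ± 1.18 (adjusted p = 0.00929). Interferon acts through a promoter element that the IRF and STAT families bind. The promoter windows of Trim30a and Ifi44 are shown because Trim30a holds a core of that element and Ifi44 is the member with the largest rise. Each window runs from 250 bases before the annotated start to 50 after it (RefSeq, GRCm38.p6, minus strand, 5′ to 3′), and capitals mark matches to GAAANNGAAA or its reverse complement TTTCNNTTTC.
Trim30a, chr7:104465144-104465443: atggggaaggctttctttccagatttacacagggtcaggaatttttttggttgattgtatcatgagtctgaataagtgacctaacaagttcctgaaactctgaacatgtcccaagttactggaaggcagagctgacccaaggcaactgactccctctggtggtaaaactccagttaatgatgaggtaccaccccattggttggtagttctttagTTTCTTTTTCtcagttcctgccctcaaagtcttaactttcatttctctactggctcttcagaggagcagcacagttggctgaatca
Ifi44, chr3:151749861-151750160: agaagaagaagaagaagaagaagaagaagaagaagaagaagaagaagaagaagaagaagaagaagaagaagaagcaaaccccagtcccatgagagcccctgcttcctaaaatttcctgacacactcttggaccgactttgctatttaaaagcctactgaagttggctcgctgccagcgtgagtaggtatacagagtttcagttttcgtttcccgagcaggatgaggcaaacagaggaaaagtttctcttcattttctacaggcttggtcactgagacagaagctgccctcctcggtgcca
Trim30a held 1 match and Ifi44 none, and none was found in the windows of Xaf1 and Irf7. Over all 27025 RefSeq windows of the same length, 943 (3.49%) held a match on either strand. Of the 35 list members 25 had a window, and 17 of these 25 (68.0%) held a match, against 3.29% of 10455 windows of tested genes. With windows for 71.4% of its members, this is a count of those windows and not a share of the list.

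Trim30a, an interferon-induced ubiquitin ligase, had 69.1, 83.3, 67.0, 32.9, 24.5 and 59.8 CPM in MMSET-Ikk2ca against 15.7, 21.9, 19.1 and 22.4 CPM in Ikk2ca(M) (1.51 ± 0.28, adjusted p = 0.0120). Ifi27 had 101, 125, 133, 49.8, 56.2 and 124 CPM in MMSET-Ikk2ca against 41.7, 38.2, 38.5 and 25.5 CPM in Ikk2ca(M) (1.45 ± 0.30, adjusted p = 0.0228). Xaf1, a pro-apoptotic interferon target, had 37.3, 28.5, 33.8, 11.8, 16.9 and 40.9 CPM in MMSET-Ikk2ca against 10.3, 10.7, 8.65 and 6.71 CPM in Ikk2ca(M) (1.64 ± 0.35, adjusted p = 0.0257). In these 3 genes every MMSET-Ikk2ca library was above every Ikk2ca(M) library, and replicates 4 and 5 were the lowest of the 6. Irf7, the factor that amplifies type I interferon, had 50.9, 57.4, 50.4, 16.9, 31.9 and 59.2 CPM in MMSET-Ikk2ca against 17.6, 24.4, 11.3 and 11.3 CPM in Ikk2ca(M) (1.46 ± 0.31, adjusted p = 0.0258), with replicate 4 inside the Ikk2ca(M) range.

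The level of the interferon list was uneven among the libraries. Taking each library's median over the list relative to the Ikk2ca(M) mean, the MMSET-Ikk2ca libraries stood at 1.73, 1.87, 1.66, 1.16, 0.25 and 1.67, and the Ikk2ca(M) libraries at 0.00, 0.40, -0.03 and -0.17. Replicate 5 was thus within the Ikk2ca(M) range. Without Ikk2ca, MMSET against Control(M) had 3 of the 35 called higher, 30 positive and a median of 0.79. Ccnd1-Ikk2ca against Ikk2ca(D) had none called, 19 positive and a median of 0.11. With Xist as a covariate 1 of the 35 was called and the median was 0.75. The count of 5 fell to 1 without Ikk2ca(M) replicate 1, to 2 without Ikk2ca(M) replicate 3 or 4 or MMSET-Ikk2ca replicate 2 or 3, and to 3 without Ikk2ca(M) replicate 2 or MMSET-Ikk2ca replicate 1 or 6, while DESeq2 called 16.

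No member was called among 33 tested NF-kB targets, 25 NF-kB kinases, subunits and inhibitors, and 20 MHC class I genes. Cxcl10, a chemokine that both interferon and NF-kB induce, had 25.7 ± 12.1 CPM in MMSET-Ikk2ca against 2.41 ± 1.38 CPM in Ikk2ca(M), without overlap, at an adjusted p of 0.0678. Slfn2 averaged 40.8 CPM in MMSET-Ikk2ca and 13.0 CPM in Ikk2ca(M) (adjusted p = 0.0624). Tap1, the peptide transporter of antigen presentation, averaged 175 CPM in MMSET-Ikk2ca and 97.1 CPM in Ikk2ca(M) (adjusted p = 0.0790), and the class I heavy chain gene H2-D1 averaged 3519 CPM in MMSET-Ikk2ca and 2253 CPM in Ikk2ca(M) (adjusted p = 0.0951). Traf6 (15.4 CPM in MMSET-Ikk2ca and 9.48 CPM in Ikk2ca(M)) and the NF-kB subunit Rela (52.3 CPM in MMSET-Ikk2ca and 40.9 CPM in Ikk2ca(M)) were not called. Ticam1, the adaptor TRIF of Toll-like receptor 3, rose to 25.5 CPM in MMSET-Ikk2ca against 13.7 CPM in Ikk2ca(M) (0.90 ± 0.19, adjusted p = 0.0275).

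**Figure D3:**
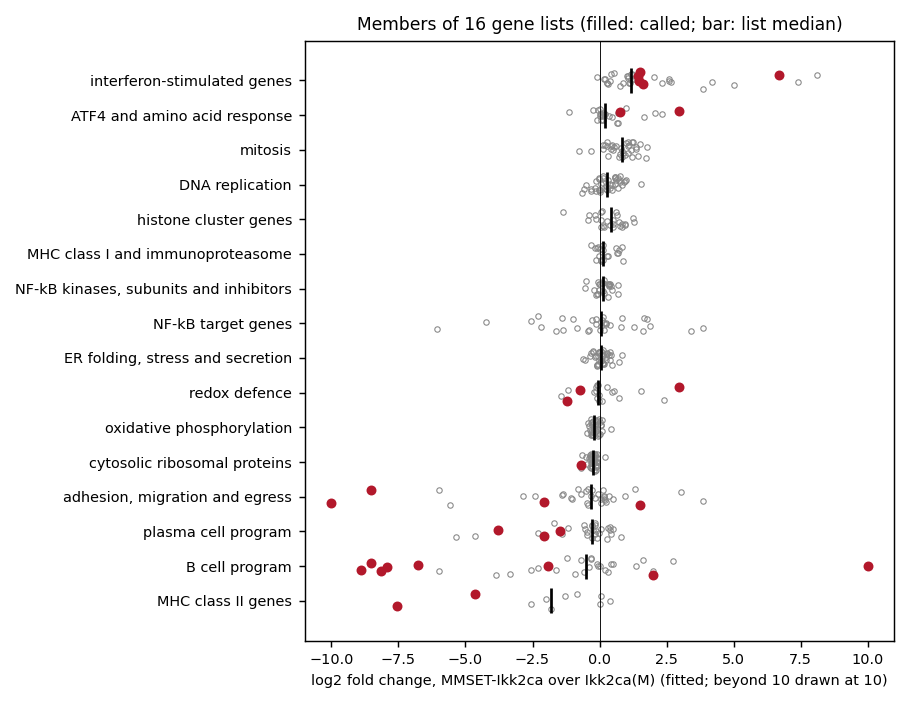
Fitted log2 fold change of MMSET-Ikk2ca over Ikk2ca(M) for each tested member of 16 gene lists, with filled points for called genes and a bar at the list median. The interferon-stimulated list has 34 of 35 members above 0, and the MHC class II list has its median at -1.79.

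Amino acid transport and redox genes changed in both directions. Slc7a11, the cystine carrier of system xc-, had 30.5, 40.2, 19.5, 11.1, 18.3 and 27.6 CPM in MMSET-Ikk2ca against 3.23, 1.11, 1.85 and 6.46 CPM in Ikk2ca(M) (2.95 ± 0.50, adjusted p = 0.00517). Its partner chain Slc3a2 averaged 1766 ± 277 CPM in MMSET-Ikk2ca and 1040 ± 298 CPM in Ikk2ca(M) (0.76 ± 0.18), close to the threshold at an adjusted p of 0.0482. These were the 2 called members of 26 tested genes of the ATF4 and amino acid response, of which 22 were positive. Of 20 redox genes 1 rose and 2 fell. Sod1, the cytosolic superoxide dismutase, had 19.6 to 42.3 CPM in MMSET-Ikk2ca against 60.01 to 92.7 CPM in Ikk2ca(M) (-1.23 ± 0.24, adjusted p = 0.0160). Txnrd1, thioredoxin reductase, averaged 14.3 CPM in MMSET-Ikk2ca and 23.6 CPM in Ikk2ca(M) (-0.72 ± 0.17, adjusted p = 0.0498). Sod1 was also lower in MMSET than in Control(M), at 31.3 CPM in MMSET and 88.1 CPM in Control(M) (-1.49 ± 0.28, adjusted p = 0.0133).

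Ribosomal protein genes lay slightly low. Of 44 tested, 43 were negative and 1 was called, with a median of -0.23. Relative to the Ikk2ca(M) mean, the library medians were -0.35, -0.24, 0.14, -0.61, -0.07 and -0.36 in MMSET-Ikk2ca. They were 0.03, 0.25, -0.08 and -0.21 in Ikk2ca(M), so the groups overlapped. Rplp0, a stalk protein of the large subunit, had 236, 253, 225, 281, 296 and 240 CPM in MMSET-Ikk2ca against 407, 378, 405 and 441 CPM in Ikk2ca(M) (-0.68 ± 0.14, adjusted p = 0.0193). Every MMSET-Ikk2ca library was below every Ikk2ca(M) library.

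Rplp0 lies on chromosome 5, as does Nsd2, and that chromosome stood apart in a comparison chosen after its values were seen. Each library's median over chromosome 5 genes, relative to the Ikk2ca(M) mean, was -0.57, -0.58, -0.53, 0.19, -0.25 and -0.42 log2 units in MMSET-Ikk2ca against -0.07, -0.10, 0.00 and 0.23 in Ikk2ca(M). Replicates 4 and 5 of MMSET-Ikk2ca, the highest of their group here, also had the highest Rplp0 levels of that group, at 281 and 296 CPM. Both Rplp0 levels were below those of every Ikk2ca(M) library. MMSET libraries stood at 0.07, 0.18, -0.37 and 0.18, and Control(M) libraries at 0.09, 0.06, 0.15 and 0.24. Every other autosome lay between -0.24 and 0.30 in these libraries. Of 390 chromosome 5 genes with a mean of at least 5 CPM in MMSET-Ikk2ca, Ikk2ca(M) and Control(M) alike, 337 (86.4%) were lower in MMSET-Ikk2ca, against 49.1% of 6276 such genes on the other autosomes. Of 967 tested chromosome 5 genes 12 were called lower (1.24%), against 70 of 14449 elsewhere (0.484%). The part of this shift in the fall of Rplp0 was not tested.

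**Figure D4:**
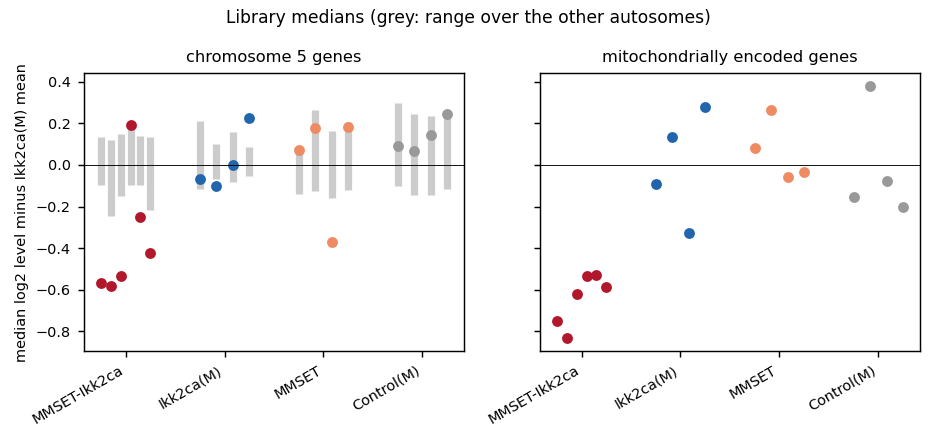
Median log2 level over chromosome 5 genes and over mitochondrial genes in each library of the 4 cohort M groups, relative to the Ikk2ca(M) mean, with grey for the range over the other autosomes. The MMSET-Ikk2ca libraries run from -0.58 to 0.19 on chromosome 5, with 5 of the 6 below every Ikk2ca(M) library.

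Oxidative phosphorylation genes had a median of -0.19 with 30 of 37 negative and none called, among them Atp5h (68.1 CPM in MMSET-Ikk2ca and 93.1 CPM in Ikk2ca(M), adjusted p = 0.0736). In MMSET against Control(M) both lists leaned the other way, with 43 of 44 ribosomal genes positive (median 0.30) and a median of 0.17 for oxidative phosphorylation.

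Cell cycle genes gave a single call. Cdkn2c encodes p18, an inhibitor of CDK4 and CDK6. It had 2.30, 1.13, 1.37, 2.69, 3.43 and 2.23 CPM in MMSET-Ikk2ca against 9.64, 10.6, 10.2 and 8.02 CPM in Ikk2ca(M) (-2.13 ± 0.31, adjusted p = 0.00159). Every MMSET-Ikk2ca library was below every Ikk2ca(M) library. Ccnd2, a D-type cyclin, had 336 to 701 CPM in MMSET-Ikk2ca against 895 to 1312 CPM in Ikk2ca(M) without overlap, but did not pass the test (-1.01 ± 0.27, adjusted p = 0.0871). Of 36 mitosis genes 34 were positive with a median of 0.83, yet none was called and none had an unadjusted p under 0.05. The library medians were 1.305, 1.31, 1.35, -2.14, 0.91 and 0.995 in MMSET-Ikk2ca against -0.40, -0.25, 0.19 and 0.68 in Ikk2ca(M), so replicate 4 went against the other 5. None of 41 DNA replication genes was called (median 0.29), with Mcm6 at 64.9 CPM in MMSET-Ikk2ca and 34.3 CPM in Ikk2ca(M) (adjusted p = 0.221).

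No member was called among 40 genes of endoplasmic reticulum folding and secretion, 27 proteasome subunits, 25 p53 targets, 25 genes of cholesterol and lipid synthesis, 25 glycolysis genes and 26 histone genes. Sel1l, of the degradation complex of the endoplasmic reticulum, came nearest in the first of these, at 2004 ± 276 CPM in MMSET-Ikk2ca and 1127 ± 233 CPM in Ikk2ca(M) without overlap (adjusted p = 0.0667). Gapdh averaged 211 CPM in MMSET-Ikk2ca and 305 CPM in Ikk2ca(M) (adjusted p = 0.165). Of 11 genes tied to NSD2 or to t(4;14) in human cells, 6 passed the filter and none was called. Csn3, kappa casein, and Elf3, an epithelial transcription factor, belong to a list drawn up from Ikk2ca libraries of this series, so they are no independent evidence of direction. Csn3 averaged 645 ± 178 CPM in MMSET-Ikk2ca and 194 ± 100 CPM in Ikk2ca(M) (adjusted p = 0.0525), and Elf3 averaged 53.6 CPM in MMSET-Ikk2ca and 10.1 CPM in Ikk2ca(M) (adjusted p = 0.0694).

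To ask whether MMSET acts alike with and without Ikk2ca, the change from MMSET was compared between both settings. MMSET against Control(M) called 100 genes (0.649% of those tested), 73 higher (0.474%) and 27 lower (0.175%). Of the 66 genes called higher on the Ikk2ca background, 21 were also called higher there and 55 had a positive fold change. Of the 82 called lower, 2 were also called lower and 53 were negative. A difference between the changes was called for 15 genes (0.0973%), with 3 more positive (0.0195%) and 12 more negative (0.0778%) under Ikk2ca.

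Hsd3b7, an enzyme of bile acid synthesis, was at 24.5 ± 6.81 CPM in MMSET-Ikk2ca and 26.7 ± 5.60 CPM in Ikk2ca(M), but at 37.0 CPM in MMSET against 5.19 CPM in Control(M). The difference between the changes was -2.96 ± 0.36 log2 units (adjusted p = 0.00190). Slc7a11 was called in both settings, with 9.94 CPM on average in MMSET against 0.0247 CPM in Control(M), a larger log2 change of 8.56 ± 0.74 from a near silent level. The difference for Slc7a11 was -5.60 ± 0.82 (adjusted p = 0.00777). Ccnd2 and Btg2, an antiproliferative p53 target, had opposite signs. Ccnd2 averaged 931 CPM in MMSET against 355 CPM in Control(M) (1.39 ± 0.31, adjusted p = 0.0440), and its difference was -2.40 ± 0.41 (adjusted p = 0.0250). Btg2 averaged 188 CPM in MMSET-Ikk2ca and 279 CPM in Ikk2ca(M), but 268 CPM in MMSET and 146 CPM in Control(M) (0.87 ± 0.18, adjusted p = 0.0273), with a difference of -1.44 ± 0.24 (adjusted p = 0.0250).

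Fgf11, Anxa2 and H2-Eb2 fell with Ikk2ca and were not called without it. MMSET libraries averaged 1.66 CPM of Fgf11 against 1.46 CPM in Control(M), and the difference had an adjusted p of 0.00284. Anxa2 averaged 11.3 CPM in MMSET and 7.38 CPM in Control(M), with an adjusted p of 0.0250 for the difference. H2-Eb2 averaged 3.03 CPM in MMSET and 13.7 CPM in Control(M), and the difference was -5.37 ± 0.98 (adjusted p = 0.0346). St8sia4 and Inpp5e fell without Ikk2ca and did not pass the test with it. St8sia4, a polysialyltransferase, averaged 19.1 CPM in MMSET-Ikk2ca and 14.4 CPM in Ikk2ca(M) but 10.8 CPM in MMSET against 27.7 CPM in Control(M), a difference of 1.78 ± 0.26 (adjusted p = 0.00777). Inpp5e, an inositol phosphatase, averaged 9.08 CPM in MMSET-Ikk2ca and 6.89 CPM in Ikk2ca(M) but 3.76 CPM in MMSET and 9.95 CPM in Control(M), a difference of 1.80 ± 0.34 (adjusted p = 0.0447).

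**Figure D5:**
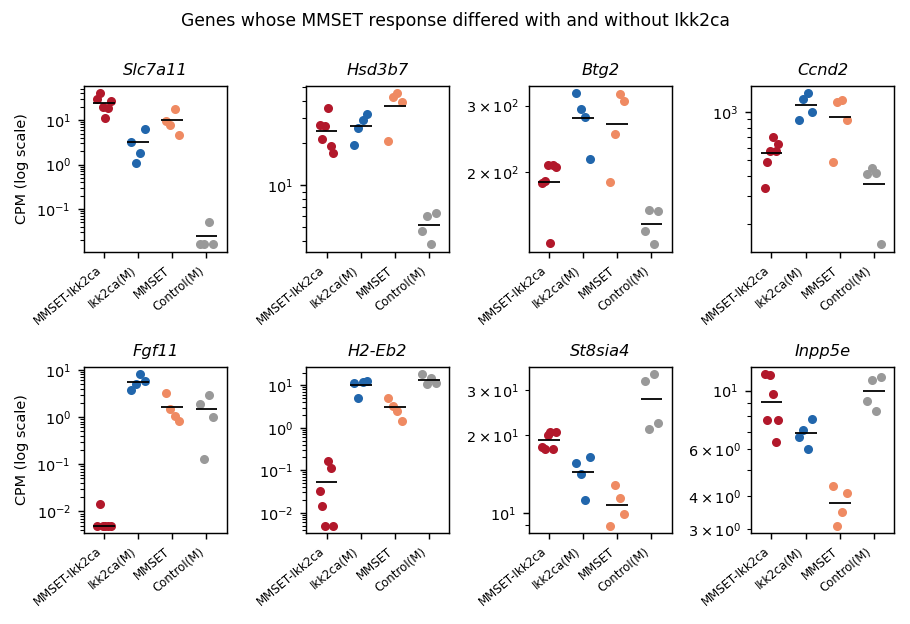
Level of genes whose change from MMSET differed with and without Ikk2ca, as CPM on log axes in each library of the 4 cohort M groups, 1 panel a gene, with each point a library, lines at the group mean and levels near 0 drawn at the lower edge. Hsd3b7 is level, at 24.5 CPM in MMSET-Ikk2ca and 26.7 CPM in Ikk2ca(M), and apart without Ikk2ca, at 37.0 CPM in MMSET and 5.19 CPM in Control(M).

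Adding MMSET was also set against adding cyclin D1 to Ikk2ca in the other cohort. In one fit of all 36 libraries, 18 of 17116 genes differed between these changes (0.105%), 10 more positive (0.0584%) and 8 more negative (0.0467%) for MMSET. Ccnd1-Ikk2ca against Ikk2ca(D) itself called 9 genes (0.0526%), 0.0117% of those tested higher and 0.0409% lower. Both targeted genes were among the 18 genes that differed, with Nsd2 at 2.83 CPM in Ccnd1-Ikk2ca and 6.45 CPM in Ikk2ca(D) (difference 7.53 ± 0.79, adjusted p = 2.52e-06). Ccnd1 was at 701 ± 253 CPM in Ccnd1-Ikk2ca and 1.39 ± 1.44 CPM in Ikk2ca(D) (difference -8.50 ± 1.26, adjusted p = 0.000844). Cdkn2c averaged 18.9 CPM in Ccnd1-Ikk2ca and 9.64 CPM in Ikk2ca(D), opposite to its fall with MMSET (difference -3.11 ± 0.40, adjusted p = 4.44e-05). Irf8 averaged 12.2 CPM in Ccnd1-Ikk2ca and 37.4 CPM in Ikk2ca(D), again opposite in sign (difference 3.61 ± 0.60, adjusted p = 0.00247). The Ikk2ca(D) mean of Irf8 was itself above the Ikk2ca(M) levels given earlier. In Ccnd1-Ikk2ca against Ikk2ca(D) alone, no gene of the B cell list was called. Of 25 tested genes of D-type cyclins, CDK4/6 and RB, only Ccnd1 was called there.

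Cd79a fell in the MMSET comparison by more than the -2.09 log2 units fitted in Ccnd1-Ikk2ca, where it averaged 83.3 CPM against 353 CPM in Ikk2ca(D) (difference -4.70 ± 0.68, adjusted p = 0.000548). Fgf11 averaged 2.28 CPM in Ccnd1-Ikk2ca and 2.84 CPM in Ikk2ca(D), and its difference had an adjusted p of 4.44e-05. H2-Eb2 (difference -6.28, adjusted p = 0.0181) and Nrp2 (difference -6.16, adjusted p = 0.00143) were likewise lower for MMSET, and Id3 was higher (adjusted p = 0.0210). Napsa, an aspartic protease, had 120.0 to 169 CPM in MMSET-Ikk2ca against 27.8 to 74.1 CPM in Ikk2ca(M) (1.59 ± 0.28, adjusted p = 0.00658), and averaged 26.2 CPM in Ccnd1-Ikk2ca and 41.8 CPM in Ikk2ca(D) (difference 2.26 ± 0.37, adjusted p = 0.00143). Ticam1 averaged 12.4 CPM in Ccnd1-Ikk2ca and 19.1 CPM in Ikk2ca(D) (difference 1.52 ± 0.25, adjusted p = 0.00199).

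Immunoglobulin transcripts took 58.4 ± 8.01% of reads in MMSET-Ikk2ca and 65.5 ± 2.44% in Ikk2ca(M). The difference did not pass a 2-sided exact permutation test (p = 0.1, or 0.3 adjusted over 3 such measures; 210 regroupings, smallest possible p 0.00476). The difference was -7.11 percentage points, -3.17 with MMSET-Ikk2ca replicates 1 to 4 only and -2.61 by TPM. The leading heavy chain V gene held 44.5 ± 18.7% of heavy chain V reads in MMSET-Ikk2ca and 42.9 ± 17.7% in Ikk2ca(M), and the leading kappa V gene 50.3 ± 25.01% of kappa V reads in MMSET-Ikk2ca and 47.7 ± 23.9% in Ikk2ca(M). Neither differed by an exact permutation test (p = 0.905 and 0.857). The shares of Ighm and Igkc ranged more widely between MMSET-Ikk2ca libraries, with overlap between the groups, and this spread was not tested. The share of Ighg1 ranged less widely there, from 0.0149 to 4.18% in MMSET-Ikk2ca against 1.91 to 11.9% in Ikk2ca(M). Ighm made up 79.2, 20.6, 80.7, 79.1, 58.1 and 8.01% of heavy constant reads in MMSET-Ikk2ca against 76.5 to 96.8% in Ikk2ca(M). Igkc made up 16.4, 24.4, 71.4, 97.3, 81.8 and 97.1% of light constant reads in MMSET-Ikk2ca against 69.4 to 97.6% in Ikk2ca(M). Ighg2c, the constant region of IgG2c, rose to 1397 to 31706 CPM (median 11959) in MMSET-Ikk2ca, against 75.8 to 873 CPM in Ikk2ca(M) (5.02 ± 0.98, adjusted p = 0.0245), with no overlap. Reads of near-identical immunoglobulin genes may have been split between them, so these levels are uncertain.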

How the data were processed

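RNA was profiled from sorted plasma cells after oligo-dT priming and template switching, with Nextera XT libraries, per the labels' protocols. Transcript abundance was estimated with Salmon 1.3.0, after bcl2fastq 2.20.0.422, per the submitters' processing notes, which also name DESeq2 1.32.0. The deposited expected counts and TPM are per transcript, and no molecular identifiers are described. Effective lengths were identical in all libraries. Here the estimated counts deposited by the authors were summed to 54203 genes through the GENCODE mouse annotation (GRCm38) and rounded to whole numbers. Deposited TPM values served only for transcript shares and one alternative.

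Genes were tested with edgeR 4.0.16 (R 4.3.3, limma 3.58.1), using TMM scaling, its default low-count filter, and robust quasi-likelihood with Benjamini-Hochberg adjustment over all genes tested at 0.05, 2-sided. All 18 libraries of the 4 cohort M groups entered 1 fit, and all 36 libraries entered the comparison with Ccnd1. A standard error is the log2 fold change over the root of its F statistic. Folds are given only above 3 reads summed in both groups, otherwise against that floor (0.00676 CPM in MMSET-Ikk2ca, 0.0111 CPM in Ikk2ca(M)) for a group at 0. The alternatives were DESeq2 1.42.0, voom, other scaling and filters, covariates, other library sets and each library left out. Simulated data with known changes were tested. In the comparison of MMSET-Ikk2ca with Ikk2ca(M), over 14626 genes, the test recovered 28% of 2-fold and 85% of 4-fold changes in genes of at least 5 CPM. It recovered 5% and 44% for the difference with and without Ikk2ca (14641 genes), and 9% and 66% for that from adding Ccnd1 (16422 genes).

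Named genes were the 3 targeted genes, the 12 largest called changes per direction at a mean of at least 5 CPM, called members of each list up to 6, the 2 smallest p in lists with none, and 4 genes per direction for each test of a difference. Xist, Y-linked genes, unnamed models and variable segments were not eligible. A few genes chosen by this rule are not reported here. The members of the comparison and the gene lists were chosen with earlier results of these data known.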

Additional observations from a re-analysis of the deposited data

Results flagged for a closer look

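Gene levels and immunoglobulin shares were examined within MMSET-Ikk2ca and Ikk2ca(M), as 150 pairs of a group and a value. In 16 of these pairs (10.7%) a gap test found a library standing apart from the others of its group. The test flags about 1 in 20 by chance for normally distributed values, a rate that need not hold for CPM near 0. In MMSET-Ikk2ca these were Id3 in replicate 5 (30.7 CPM), Rbms3 in replicate 6 (15.4 CPM), Chil3 in replicate 1 (0.0644 CPM), Myo1e in replicate 6 (0.579 CPM), Blk in replicate 1 (0.0644 CPM), Slc3a2 in replicate 6 (1241 CPM) and Btg2 in replicate 4 (129.8 CPM). In Ikk2ca(M) they were Ikbkb in replicate 3 (73.0 CPM), Ifi44 in replicate 2 (0.743 CPM), Btla in replicate 1 (30.3 CPM), Chil3 in replicate 4 (52.4 CPM), H2-Eb2 in replicate 2 (5.05 CPM), Myo1e in replicate 1 (11.9 CPM), Cxcr3 in replicate 3 (1.61 CPM), Dusp2 in replicate 1 (2.44 CPM) and Irf8 in replicate 1 (16.03 CPM).

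The change from MMSET differed with and without Ikk2ca by a tested interaction in edgeR for Anxa2 (adjusted p = 0.0250) and Fgf11 (adjusted p = 0.00284), and by a log2 difference of -5.37 for H2-Eb2, -2.40 for Ccnd2, -5.60 for Slc7a11, -1.44 for Btg2, 1.78 for St8sia4, 1.80 for Inpp5e and -2.96 for Hsd3b7. Adding MMSET and adding cyclin D1 to Ikk2ca differed in the same kind of test for Id3 (adjusted p = 0.0210) and Fgf11 (adjusted p = 4.44e-05), and by a log2 difference of 7.53 for Nsd2, -8.50 for Ccnd1, -6.28 for H2-Eb2, -6.16 for Nrp2, -4.70 for Cd79a, -3.11 for Cdkn2c, 2.26 for Napsa, 1.52 for Ticam1 and 3.61 for Irf8.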

How the results depend on the processing

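The 148 calls became 693 under DESeq2 (384 higher and 309 lower), 531 under voom (264 and 267), 229 in the fit of all 36 libraries (70 and 159), 170 in a fit of the 2 groups alone (108 and 62), 72 with Xist as a covariate, 68 with MMSET-Ikk2ca replicates 1 to 4 only (38 and 30) and 48 at an adjusted p of 0.01. Leaving out each library gave 76 (without Ikk2ca(M) replicate 4) to 239 (without MMSET-Ikk2ca replicate 4), with 89 without Ikk2ca(M) replicate 1 and 93 without MMSET-Ikk2ca replicate 3. Called list members, 32 in all, numbered 75 under DESeq2, 62 under voom, 15 with the Xist covariate, 15 with replicates 1 to 4, and 15 (without Ikk2ca(M) replicate 4) to 39 over the libraries left out. The 15 differences with and without Ikk2ca became 380 under DESeq2, 33 under voom, 24 without immunoglobulin genes, 5 with the Xist covariate and 4 (without Control(M) replicate 3 or MMSET-Ikk2ca replicate 2) to 31 (without MMSET replicate 1). The 18 differences from adding Ccnd1 became 399 under DESeq2, 107 under voom, 11 with no filter and 11 (without Ikk2ca(M) replicate 2) to 26. The difference in immunoglobulin share ran from -8.63 to -4.22 percentage points over the libraries left out, with an exact permutation p adjusted over the 3 measures of at least 0.143. The Nsd2-201 share was 43.4% by TPM. With the replicate number as a block, a fit whose pairing the labels do not give, 74 genes were called (40 and 34), with 17 list members and 3 differences with and without Ikk2ca. Same-numbered deviations correlated at -0.0421 to 0.106 in 24 pairs over the 4 groups, and others at -0.185 to 0.0987, so the numbers were not taken as pairs. Of 77 named genes 44 were called. Of these, 43 stayed called under DESeq2, 37 under voom, 39 in the fit of all 36 libraries and 32 in that of the 2 groups alone. Only 26 stayed called with the Xist covariate, 24 with replicates 1 to 4 and 22 with the replicate block, and 13 were called in every setting. In 2944 gene and setting pairs, no value changed sign where the gene was called in the main fit or in that setting. With each of the 18 libraries left out in turn 19 stayed called. The call was lost without Ikk2ca(M) replicate 4 for Sgce, without Ikk2ca(M) replicate 1 for Trim30a and Sntg2, without Ikk2ca(M) replicate 1 or 4 for Ets1, Id3 and Sod1, without Ikk2ca(M) replicate 1 or MMSET-Ikk2ca replicate 6 for Itgb7, without Ikk2ca(M) replicate 4 or MMSET-Ikk2ca replicate 1 or 3 for H2-Ab1, without Ikk2ca(M) replicate 1, 2 or 4 for Pecam1, without Ikk2ca(M) replicate 2, 3 or 4 for Xlr3b, when any Ikk2ca(M) library was left out for Irf8 and Rbms3, and without Ikk2ca(M) replicate 1 or 4 or MMSET-Ikk2ca replicate 3 or 6 for Rplp0, with adjusted p up to 0.101. It was lost in 6 omissions for Ifi27 and Ticam1, 7 for Irf7, 8 for Btla, Myo1e and Xaf1, 9 for Dusp2, 10 for Tnfrsf17, 12 for Cxcr3, 14 for Slc3a2, 15 for Ctla4 and 16 for Txnrd1, with adjusted p up to 0.205. Among the differences with and without Ikk2ca, the call was lost in 5 omissions for Btg2, 6 for Anxa2, 7 for Ccnd2, 11 for H2-Eb2 and 15 for Inpp5e, and for these with the Xist covariate too, while Slc7a11 was not called by voom. Among those from adding Ccnd1, H2-Eb2 was not called without Ikk2ca(D) replicate 2, 3 or 4, nor Id3 when any Ikk2ca(M) library was left out, nor Ccnd1 by voom. The cause of these changes was not tested. Depth limits genes near silence, whose called change rests on few reads in a single group.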

Other observations

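The genes in this part were chosen after their values were seen. Other called genes included several outside the lists above. C1qb, a complement chain known from macrophages, had 10.2 to 35.4 CPM in MMSET-Ikk2ca against 0.558 to 1.36 CPM in Ikk2ca(M) (log2 fold change 4.65 ± 0.56, adjusted p = 0.000268, edgeR), while its partner chains C1qa and C1qc were not called. Mfge8, a bridge to apoptotic cells, had 15.4 to 71.8 CPM in MMSET-Ikk2ca against 1.03 to 4.00 CPM in Ikk2ca(M) (3.65 ± 0.48, adjusted p = 0.000464). Ifitm3, an interferon-induced membrane protein, had 59.7 to 177 CPM in MMSET-Ikk2ca against 13.4 to 25.2 CPM in Ikk2ca(M) (2.49 ± 0.32, adjusted p = 0.000404). Ly6i ranged from 159 to 5255 CPM in MMSET-Ikk2ca against 47.8 to 140.0 CPM in Ikk2ca(M) (4.87 ± 0.84, adjusted p = 0.0120). Kit, the stem cell factor receptor, had 19.0 to 58.1 CPM in MMSET-Ikk2ca against 2.70 to 16.3 CPM in Ikk2ca(M) (2.11 ± 0.44, adjusted p = 0.0256). Ndn, imprinted like Peg3 and Sgce, had 0.934 to 7.15 CPM in MMSET-Ikk2ca and a single read in Ikk2ca(M) (adjusted p = 0.00470). Among the falls, Wnt10a, a Wnt ligand, had 2.79 to 34.5 CPM in MMSET-Ikk2ca against 119 to 219.7 CPM in Ikk2ca(M) (-3.18 ± 0.42, adjusted p = 0.000864). Txndc5, a disulfide isomerase of secretory cells, had 570 to 969 CPM in MMSET-Ikk2ca against 1297 to 2463 CPM in Ikk2ca(M) (-1.20 ± 0.19, adjusted p = 0.00330).

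The 15 mitochondrial genes were all lower in MMSET-Ikk2ca and 5 were called. Over all 15416 tested genes, 7978 had a positive fold change and 0.532% were called lower. The mitochondrial log2 fold changes ran from -0.95 for mt-Nd2 to -0.46 for mt-Co3. The groups overlapped for some of these genes, such as mt-Cytb, at 880 to 1367 CPM in MMSET-Ikk2ca against 1121 to 2741 CPM in Ikk2ca(M). Gt(ROSA)26Sor, the transcript of the Rosa26 locus, had 0.435 to 3.02 CPM in MMSET-Ikk2ca against 5.64 to 11.0 CPM in Ikk2ca(M) (-2.27 ± 0.38, adjusted p = 0.00470).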
